A study of Homo sapiens with 4 samples.

Results

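Trefoil factors and luminal secretory genes were followed in estrogen-treated Ishikawa and T-47D cells through 8 named genes, TFF1, TFF3, AGR2, AGR3, PIP, AZGP1, XBP1 and STC2. The genes were picked by symbol, with earlier results of these data known, and each symbol matched 1 row among the 33540 features of the Ishikawa matrix and 1 row among the 33538 features of the T-47D matrix. Ishikawa is an established endometrial adenocarcinoma line and T-47D an established line from a ductal carcinoma of the mammary gland. Cells of both lines spent 5 days in hormone-depleted medium and were then given 10 nM 17β-estradiol (E2) for 2, 4 or 8 h, or DMSO as the vehicle control, which is the 0 h group. The cells of the 4 times were labelled with MULTI-seq tags, which mark the culture a cell came from, mixed, and loaded on droplets together, with a single gene expression library for each line.

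Each line and time was 1 culture. No value below therefore has a replicate, no test was run, and every interval is a 95% interval for counting error only. Unique molecular identifiers (UMIs), each marking 1 captured transcript, were summed over the kept cells of a line and time into a pool and divided by the pool's total, as counts per 1000000 (CPM). A gene was called changed when it averaged at least 10 CPM over the 4 pools of its line and differed by at least 1.5-fold from the 0 h pool, after 1 CPM was added to both so that low genes do not give extreme ratios; this understates the change of low genes, and log2 changes below are on that scale. Since 3′ UMIs were not divided by gene length, levels are compared between pools and not between genes.

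Trefoil factors are small, disulfide-bonded peptides that epithelia secrete with mucus, and TFF1 is a classical estrogen-induced gene of breast cancer cells. AGR2 and AGR3 are protein disulfide isomerases of the endoplasmic reticulum, where secreted proteins fold, and XBP1 is the transcription factor of the unfolded protein response that enlarges this compartment in secretory cells. PIP (prolactin-induced protein) and AZGP1 (zinc-alpha-2-glycoprotein) are secreted products of apocrine and luminal breast epithelium, and STC2 (stanniocalcin 2) is a secreted glycoprotein hormone of phosphate and calcium balance. XBP1, TFF1 and STC2 are among the genes commonly high in estrogen receptor-positive breast tumors.

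In RefSeq (GRCh38.p14) TFF1 lies at chr21:42362282-42366535 and TFF3 at chr21:42311667-42315409. AGR2 at chr7:16791811-16804999 and AGR3 at chr7:16854681-16881983 are likewise close to each other, and AZGP1 (chr7:99966730-99976031) and PIP (chr7:143132077-143139739) lie elsewhere on chromosome 7. XBP1 lies at chr22:28794560-28800569 and STC2 at chr5:173314723-173328414. Promoter windows of 300 bases, from 250 bases before to 50 bases after the RefSeq start, were found for 6 of the 8 genes. The 3 windows printed here belong to the genes with a window whose summed level passed 1.5-fold in T-47D, and the fourth to AGR2, the paralog of AGR3. They are written 5′ to 3′ on the gene's strand (all 4 genes lie on the minus strand), with capitals for the estrogen half-site GGTCA (or TGACC on the other strand), the TATA box TATAAA and the ER stress response element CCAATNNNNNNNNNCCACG.
XBP1 promoter (chr22:28800520-28800819): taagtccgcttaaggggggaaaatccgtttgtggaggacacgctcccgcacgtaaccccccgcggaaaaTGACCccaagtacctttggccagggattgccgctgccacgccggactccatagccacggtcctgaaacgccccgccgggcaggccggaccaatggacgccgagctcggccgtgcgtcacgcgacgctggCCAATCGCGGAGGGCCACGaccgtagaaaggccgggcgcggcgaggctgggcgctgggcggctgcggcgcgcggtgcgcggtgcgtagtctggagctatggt
STC2 promoter (chr5:173328365-173328664): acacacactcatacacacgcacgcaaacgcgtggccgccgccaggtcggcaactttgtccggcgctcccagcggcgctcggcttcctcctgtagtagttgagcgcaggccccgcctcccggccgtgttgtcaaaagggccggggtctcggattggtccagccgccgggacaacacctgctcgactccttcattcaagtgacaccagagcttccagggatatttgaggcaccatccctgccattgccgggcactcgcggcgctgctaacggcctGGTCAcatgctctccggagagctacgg
AGR3 promoter (chr7:16881934-16882233): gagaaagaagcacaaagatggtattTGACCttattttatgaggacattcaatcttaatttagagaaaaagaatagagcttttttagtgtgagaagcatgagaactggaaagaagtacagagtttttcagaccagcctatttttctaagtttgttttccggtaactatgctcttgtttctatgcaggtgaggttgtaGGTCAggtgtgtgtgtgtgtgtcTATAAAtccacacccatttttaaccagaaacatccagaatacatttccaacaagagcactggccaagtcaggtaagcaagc
AGR2 promoter (chr7:16804950-16805249): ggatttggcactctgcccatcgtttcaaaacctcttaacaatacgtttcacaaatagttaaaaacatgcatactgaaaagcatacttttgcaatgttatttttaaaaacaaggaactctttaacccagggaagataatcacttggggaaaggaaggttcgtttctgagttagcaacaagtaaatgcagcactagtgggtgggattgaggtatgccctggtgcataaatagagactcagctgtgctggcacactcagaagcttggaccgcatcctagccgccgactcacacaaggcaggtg
The XBP1 window held the complete ER stress response element, which starts 52 bases before the gene start and which 27 of 35116 RefSeq promoter windows (0.0769%) held on either strand. In the printed windows XBP1 and STC2 each had 1 estrogen half-site and AGR3 had 2, against 37.4% of all windows with at least 1, and AGR2 had none. XBP1 also has a RefSeq window at another start (chr22:28800028-28800327), not printed, with TGACC at positions -50 and 26 from that start. The full palindrome GGTCANNNTGACC was in no window of the 6 genes and in 0.057% of all windows. AGR3 had a TATA box 31 bases before the start, as 11.5% of all windows had on either strand. These matches describe the letters of the windows only.

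The Ishikawa matrix kept 4613 cells (776, 1480, 892 and 1465 at 0, 2, 4 and 8 h) and the T-47D matrix 4626 (1525, 1207, 1341 and 553), with 12927799 to 33175309 UMIs per pool and 5 kept barcodes shared by the libraries. The cell limits kept 38.2% of the called Ishikawa cells at 0 h and 52.4% to 55.8% at the later times. In T-47D they removed no called cell. There 12120 of 18188 barcodes had no call, against 4002 of 14985 in Ishikawa. The sources used here do not say whether the T-47D calls had been limited to such cells before deposit. A barcode without a call may therefore not mean the same in the 2 lines. GFP took 3.87% of the Ishikawa UMIs (4.67% at 0 h and 3.17% at 2 h), and the sources used here do not say which construct the cells carry. Of the 10 luminal breast markers, T-47D had 9 at or above 10 CPM, summing to 11997 to 17081 CPM, and Ishikawa had 5, summing to 3587 to 4434 CPM with TFAP2B at 0. Of the 8 endometrial and Müllerian markers, Ishikawa had 7 at or above 10 CPM, and T-47D had 1, with PAX8, SOX17, EMX2 and HOXA10 at 0. Immune markers summed to at most 2.43 CPM in any pool and endothelial markers to at most 1.44 CPM.

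Before E2 the 8 genes were higher in T-47D than in Ishikawa, and 5 of them were close to absent from Ishikawa. Averaged over the 0 h pools of both lines 7 of the 8 reached 10 CPM, of which 6 were 1.5-fold higher and none 1.5-fold lower in T-47D, and TFF1 did not reach it. Of 8023 genes past this minimum, 23.7% were higher and 33% lower in T-47D. The lines were separate libraries, so line and library cannot be told apart. PIP had 24232 UMIs (730 CPM) in T-47D at 0 h and 0 UMIs in each of the 4 Ishikawa pools, where 3 UMIs would have been 0.0968 to 0.196 CPM, which makes it at least 3726-fold higher against a floor of 3 UMIs in the Ishikawa 0 h pool. TFF3 had 560 CPM in T-47D at 0 h and a single UMI in all Ishikawa pools together, at 8 h, and was at least 2858-fold higher against the same floor. The Ishikawa UMIs of TFF1 were 2, 3, 0 and 0 at 0, 2, 4 and 8 h, those of AGR3 6, 14, 12 and 7, and those of AZGP1 10, 21, 8 and 18.

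The other 3 genes passed 10 CPM in both lines. AGR2 stood at 1494 CPM (1481 to 1507) in T-47D and 22.0 CPM (19.7 to 24.4) in Ishikawa at 0 h, a 68.0-fold difference (61.1 to 76.0). XBP1 stood at 356 CPM against 122 CPM, 2.92-fold higher in T-47D (2.78 to 3.07). STC2 was the closest, with 27.3 CPM against 17.9 CPM, a plain ratio of 1.52 (1.33 to 1.75) that fell just below the 1.5-fold rule on the scale with the pseudocount (0.58 on the log2 scale).

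**Figure D1:**
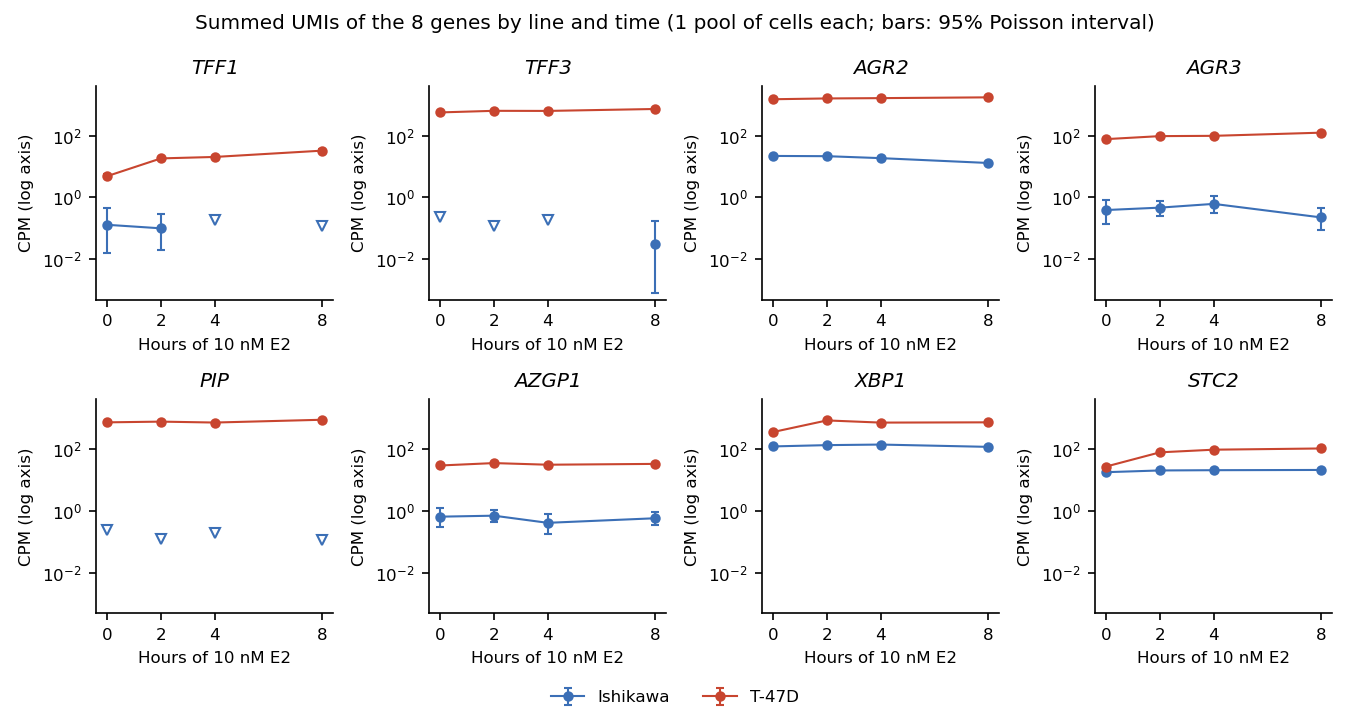
Summed level of each gene in CPM (log axis) against hours of 10 nM E2 in Ishikawa (blue) and T-47D (red); each point is 1 pool of cells, bars are 95% Poisson intervals, many smaller than the points, and open triangles mark the upper limit of a pool with 0 UMIs. TFF1, XBP1 and STC2 rose in T-47D, PIP and TFF3 were at or near 0 UMIs in Ishikawa, and AGR2 ended lower in Ishikawa after 8 h.

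In T-47D, E2 was followed by higher levels of 3 of the 8 genes at 2 and 4 h and of 4 of the 8 at 8 h. Over all 7440 genes past the minimum, 1.22%, 1.33% and 2.34% were 1.5-fold higher at 2, 4 and 8 h. None of the 8 was 1.5-fold lower, and of all genes 0.417%, 0.363% and 0.726% were. The median log2 change of the 8 genes was 0.28, 0.25 and 0.53 at the 3 times, and that of all genes was within 0.01 of 0.

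TFF1, the estrogen-induced trefoil factor, had the largest change. Its summed level was 4.88 CPM (4.16 to 5.70, from 162 UMIs) before E2, and 18.3, 20.4 and 32.6 CPM after 2, 4 and 8 h, the last with an interval of 29.5 to 35.8. The ratio to 0 h was 3.74 (3.13 to 4.50) at 2 h and 6.67 (5.55 to 8.04) at 8 h, with intervals that do not overlap. TFF1 was below 10 CPM at 0 h and passed the minimum only through the later pools. Its paralog TFF3 stood at 560, 631, 626 and 723 CPM, 1.29-fold above 0 h at 8 h (1.26 to 1.32) and never past the rule.

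XBP1 and STC2 moved early. XBP1 went from 356 CPM at 0 h to 843 CPM at 2 h, 2.37-fold (2.32 to 2.42), and then stood at 717 and 731 CPM at 4 and 8 h. Its highest level was thus at the earliest time, and the 4 and 8 h intervals (707 to 727 and 717 to 746) lay below that of 2 h (832 to 854). STC2 went from 27.3 CPM to 78.5, 95.5 and 105 CPM over the same times. The ratios of STC2 were 2.88, 3.50 and 3.83, and its 4 h and 8 h levels had intervals that all but touched (92.0 to 99.1 and 99.1 to 110).

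The disulfide isomerases changed less. AGR3 stood at 76.8, 96.0, 98.0 and 124 CPM and passed the rule at 8 h with 1.62-fold (1.52 to 1.72). AGR2 stood at 1494, 1584, 1622 and 1719 CPM, 1.15-fold above 0 h at 8 h (1.13 to 1.17). At 8 h the ratio of AGR3 thus lay above that of its neighbor and paralog AGR2, with intervals that do not overlap.

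The apocrine products PIP and AZGP1 passed the rule at no time. PIP stood at 730, 771, 720 and 886 CPM, with a highest ratio of 1.21 at 8 h (1.19 to 1.24). AZGP1 stood at 29.4, 35.2, 31.2 and 33.2 CPM, with a highest ratio of 1.197 at 2 h (1.09 to 1.31).

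In Ishikawa, 3 of the 8 genes passed the minimum, none of them was 1.5-fold higher at any time, and 1 was 1.5-fold lower at 8 h. Over all 7885 genes past the minimum there, 0.786%, 0.634% and 0.812% were higher and 0.659%, 0.621% and 0.469% lower at 2, 4 and 8 h. The gene that fell was AGR2, with 22.0, 21.6, 18.6 and 13.0 CPM at 0, 2, 4 and 8 h, a ratio of 0.592 at 8 h (0.511 to 0.687). Without the cell limits, over every called cell, its 8 h log2 change was -0.51 instead of -0.71 and did not pass the rule, nor did it in cells without TOP2A or MKI67 UMIs (-0.52). The median log2 change of 25 G2 and M phase genes there was -0.02, -0.24 and -0.26 at the 3 times, and their part and that of the lower share of cells kept at 0 h in this result were not tested. XBP1 stood at 122, 134, 140 and 118 CPM, and STC2 at 17.9, 20.4, 20.8 and 21.1 CPM. The highest ratios of these 2 genes were 1.15 for XBP1 at 4 h (1.08 to 1.22) and 1.18 for STC2 at 8 h (1.02 to 1.36), against 2.01 and 3.83 in T-47D at the same times.

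Cells with a UMI of each gene were counted at equal depth. Each cell was thinned at random to 12539 UMIs, which left 541 to 1456 T-47D cells and 676 to 1336 Ishikawa cells per pool. For a gene with few UMIs per cell this share follows the level per cell, so more expressing cells and more transcript per cell cannot be told apart from it. TFF1 was found in 4.81% of thinned T-47D cells before E2 (3.77% to 6.04%), in 10.5% and 12.2% after 2 and 4 h, and in 17.6% after 8 h (14.4% to 21.0%). A thinned cell with TFF1 held 1.37 UMIs of it on average at 0 h and 2.21, 2.09 and 2.17 later. TFF1 thus remained undetected in most cells at 8 h at this depth, while single cells held up to 47 UMIs at 4 h. In thinned Ishikawa cells, which come from another library, the TFF1 share was 0.148% at 0 h. Without thinning the T-47D shares were 6.95%, 14.3%, 16.6% and 25.7%, at median depths of 20677 to 22576 UMIs per cell.

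STC2 and AGR3 were also detected in more cells at the later times. STC2 was found in 21.4% of thinned T-47D cells before E2 (19.3% to 23.6%), in 47.2% and 50% after 2 and 4 h, and in 54.9% after 8 h (50.6% to 59.1%), with 1.58 UMIs per positive cell at 0 h and 2.12 to 2.40 afterwards. AGR3 was found in 53.1%, 60.2%, 63.1% and 70.6% of cells, and UMIs per positive cell went from 1.87 at 0 h to 2.30 at 8 h. For AZGP1 the share stood at 21.5%, 21.9%, 22.2% and 23.1%, with overlapping intervals at all 4 times.

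XBP1 was already in 91.8% of thinned T-47D cells at 0 h (90.2% to 93.1%) and in 98.1% to 99.8% afterwards. The level per cell moved more than the share, since the median cell held 3 XBP1 UMIs at 0 h and 9, 8 and 8 at 2, 4 and 8 h. Cells with at least 10 XBP1 UMIs made up 9.96%, 49.96%, 40.1% and 42.9% of the cells at the 4 times in order. AGR2 was found in 99.8% to 100% of thinned T-47D cells and TFF3 in 95.03% to 95.6%. In Ishikawa, AGR2 was found in 17.2% of thinned cells at 0 h (14.4% to 20.2%) and 12.6% at 8 h (10.8% to 14.5%), with 1.69 and 1.37 UMIs per positive cell.

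**Figure D2:**
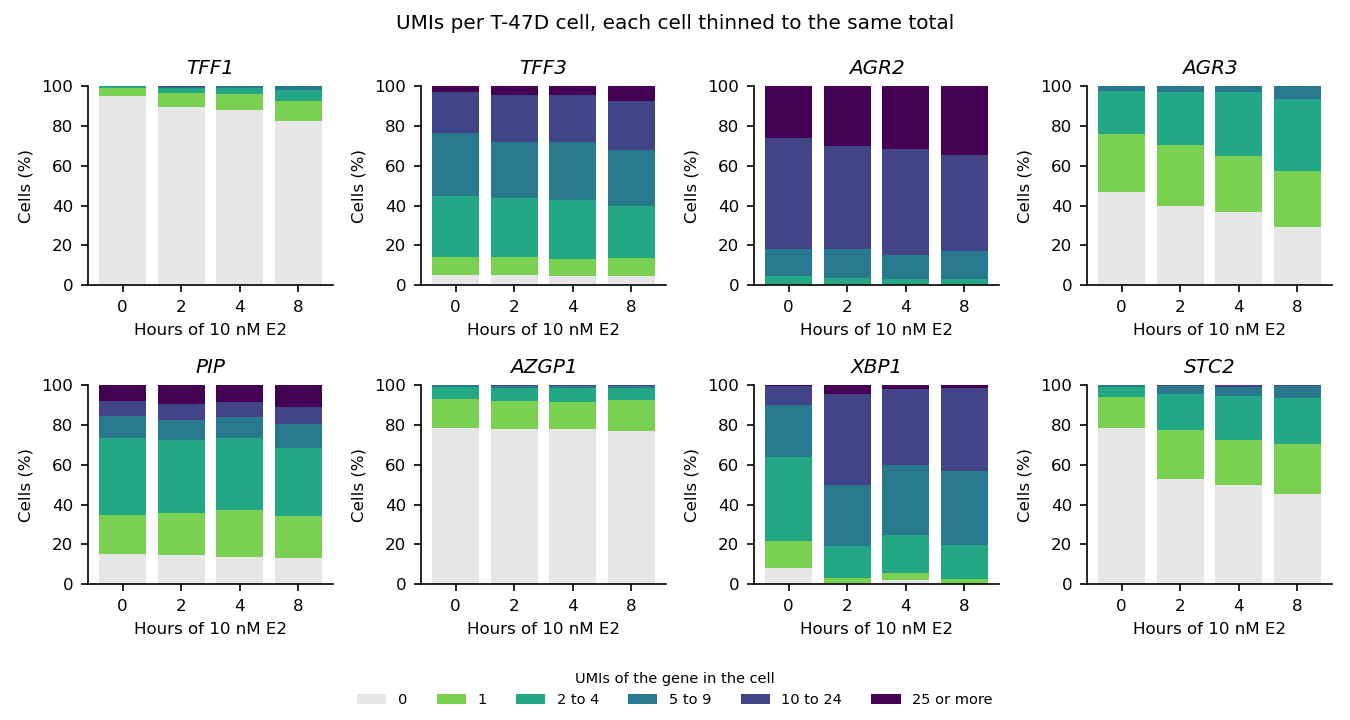
Share of T-47D cells (percent) by the number of UMIs of each gene in the cell (grey for 0, darker for more) by hours of E2, each cell thinned to 12539 UMIs. XBP1 cells moved to higher counts by 2 h, STC2, AGR3 and TFF1 lost part of their cells without a UMI, and PIP kept a minority of cells with 25 or more UMIs beside a median of 2.

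PIP had a minority of cells with high counts. It was found in 84.9% to 86.9% of thinned T-47D cells with a median of 2 UMIs at each time, yet the highest cell held 472 UMIs at 0 h and the top 10% of cells held 68.6% to 70.7% of all PIP UMIs. Cells with at least 25 PIP UMIs made up 7.83%, 9.33%, 8.32% and 10.9% of the cells at 0, 2, 4 and 8 h. The top 10% of cells held 22.1% to 24.3% of AGR2 UMIs, 22.7% to 32.2% of XBP1, 33.3% to 36.8% of TFF3 and 32.0% to 40.8% of AGR3 UMIs. For the genes that many cells lacked this share was 42.7% to 66.4% (STC2), 69.1% to 71.0% (AZGP1) and 80.6% to 100% (TFF1), so by this measure PIP was not the most uneven gene. The variance over the mean was 61.0 to 85.2 for PIP in the 4 pools and at most 11.3 for each of the other genes. The study describes separate clusters of T-47D cells already before E2, which by TOP2A did not seem tied to the cell cycle. No clusters were made here, and the part of such clusters in the spread and the pairs of these genes was not tested.

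Spread between cells was also measured by the standard deviation over the mean (CV) of a gene's UMIs per 10000 in unthinned cells, and by the residual of log2(CV + 1) from a smooth curve on the log10 mean over all genes of at least 10 CPM in the pool. The study's methods also use residuals of such a curve, but on the mean itself and with another gene filter, so these residuals are not the study's measure. In T-47D all 8 genes lay above the curve in every pool in which they reached 10 CPM. PIP had a CV of 3.09, 2.56, 2.91 and 2.63 at 0, 2, 4 and 8 h and a residual at the 99.9 percentile or above, among 7393 to 7452 genes. TFF1 had a CV of 4.92, 5.67 and 2.95 at 2, 4 and 8 h, with percentiles of 99.8, 99.9 and 99.5. Few cells held high TFF1 counts, as 5, 3 and 1 thinned cells held at least 10 UMIs at these times. At 4 h 1 of them held 47 UMIs, and the part of such cells in the CV was not tested. AZGP1 ranked between 98.9 and 99.5, TFF3 between 98.3 and 98.8, STC2 between 97.8 and 98.2, AGR2 between 95.7 and 96.6, and AGR3 between 94.5 and 96.6.

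XBP1 had a lower CV between cells at the times of higher level. Its CV was 0.919 before E2 and 0.628, 0.652 and 0.556 after 2, 4 and 8 h, and its percentile went from 97.7 to 96.0, 96.1 and 93.6. In thinned cells its variance over the mean was 4.09, 4.35, 4.15 and 3.26 at 0, 2, 4 and 8 h. That measure was not lower at 2 and 4 h, but it can rise with the mean. The mean was 4.45 XBP1 UMIs per thinned cell at 0 h and 10.7, 9.01 and 9.25 later. It therefore cannot be set against the CV and the percentile. In Ishikawa, AGR2 ranked between 97.0 and 99.5 and STC2 between 93.0 and 96.7, and XBP1 ranged from 72.9 at 8 h to 91.1 at 4 h.

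**Figure D3:**
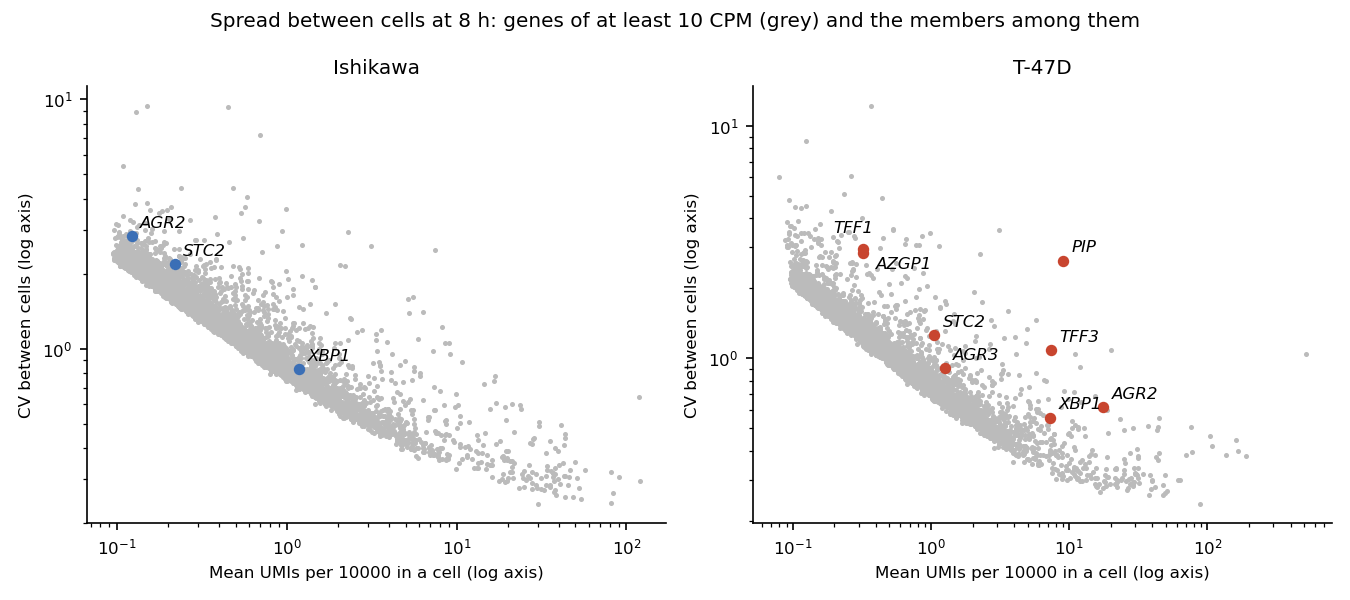
CV between cells (log axis) against mean UMIs per 10000 (log axis) at 8 h in Ishikawa (left) and T-47D (right), with each gene of at least 10 CPM in grey and the named genes in color. PIP stands far above the genes of its mean level in T-47D with a CV of 2.63, and of the named genes there XBP1 lies closest to the cloud (percentile 93.6).

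The genes differed in which of them rose and fell together from cell to cell. In thinned cells of 1 pool, Spearman's rho was computed for each pair. Its standard error about 0 is 0.0262 to 0.0430 in T-47D and 0.0274 to 0.0385 in Ishikawa, and a repeat of the thinning moved a pair by a median of 0.0158 in T-47D and by at most 0.0774. Cells of a pool share a library and a culture, so these values are descriptions. PIP went with AZGP1 at every time (rho of 0.23, 0.20, 0.29 and 0.23 at 0, 2, 4 and 8 h in T-47D). XBP1 went with both apocrine genes, at 0.33, 0.16, 0.25 and 0.12 with PIP and at 0.25, 0.16, 0.18 and 0.10 with AZGP1. AGR2 and PIP were opposed, with rho of -0.17, -0.19, -0.18 and -0.19.

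Some pairs stood higher after E2 than before, and others lower. XBP1 with PIP (0.33 at 0 h and 0.12 at 8 h) and with AZGP1 (0.25 and 0.10) stood lower at each later time than at 0 h. The pairs that follow stood higher. XBP1 and STC2 had a rho of 0.07 at 0 h and 0.27, 0.15 and 0.18 at 2, 4 and 8 h. For AGR2 and STC2 the values were 0.05, 0.25, 0.15 and 0.23, and for AGR2 and XBP1 they were -0.08, 0.15, 0.04 and 0.16. The 2 trefoil factors had a rho of 0.07, 0.13, 0.13 and 0.28. TFF3 and XBP1 stood at 0.18 at 0 h, 0.35 at 2 h and 0.21 at 4 and 8 h, and the last 2 values differed from 0 h by less than the largest standard error. The 2 AGR genes had 0.16, 0.17, 0.17 and 0.23, of which those at 2 and 4 h were likewise within it. STC2, TFF1 and XBP1 also had more UMIs per cell in the later pools, and the part of that in their higher rho was not tested. The 3 Ishikawa pairs of AGR2, XBP1 and STC2 lay between -0.04 and 0.10 at all times.

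**Figure D4:**
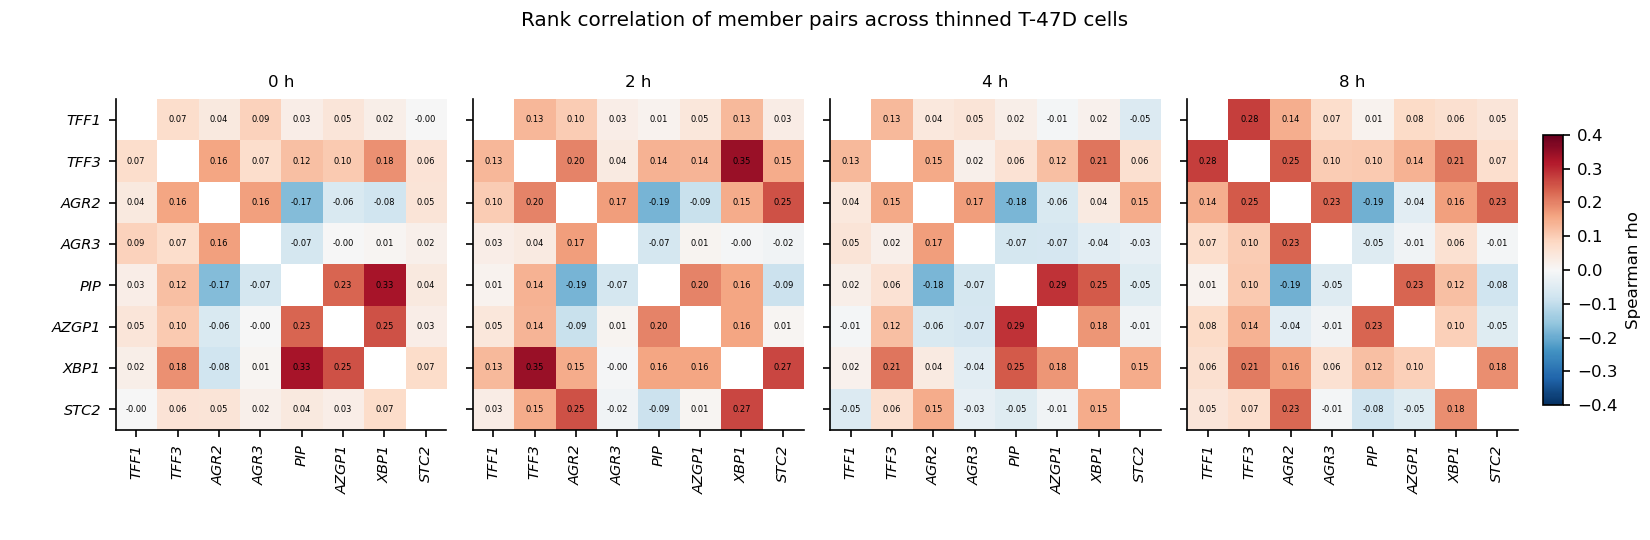
Spearman's rho of each pair of the 8 genes across thinned T-47D cells (color and printed value) by hours of E2. The PIP, AZGP1 and XBP1 pairs are positive at each time, AGR2 and PIP are negative at each time, and XBP1 with STC2 and AGR2 with STC2 are higher after E2 than at 0 h. XBP1 with PIP and XBP1 with AZGP1 are lower after E2 than at 0 h.

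The genes also differed in their rho with summed lists of other genes. With the summed UMIs of 20 estrogen target genes, XBP1 had a rho of 0.14 at 0 h and 0.37, 0.24 and 0.33 at 2, 4 and 8 h. TFF3 had 0.02 at 0 h and 0.25, 0.18 and 0.27 later, although its summed level did not pass the rule. AGR2 had 0.00 at 0 h and 0.22, 0.23 and 0.25 later. TFF1 had 0.07 at 0 h and 0.16, 0.11 and 0.20 later, and STC2 had 0.05 and then 0.23, 0.17 and 0.23. For AGR3 the values were 0.13, 0.09, 0.13 and 0.20 at the 4 times. The list itself rose from 1024 CPM at 0 h to 1722, 1881 and 2282 CPM, and XBP1, TFF1, STC2 and AGR3 also had more UMIs per cell. The part of these rises in the higher rho was not tested. PIP stayed between -0.07 and 0.01 and AZGP1 between -0.05 and 0.07. With the summed XBP1 targets and genes of the unfolded protein response, XBP1 had 0.23, 0.25, 0.31 and 0.14, PIP 0.13 to 0.18 and AZGP1 0.09 to 0.17, while AGR2 stayed between -0.04 and 0.02. With the summed translocon and transport genes of the secretory route AGR2 had 0.19, 0.18, 0.24 and 0.23. TFF3 had 0.16 to 0.22 with them, XBP1 0.11 to 0.17, PIP 0.03 to 0.08 and AZGP1 0.04 to 0.05. With the summed disulfide isomerases AGR2 had 0.12, 0.08, 0.15 and 0.04. In Ishikawa XBP1 had 0.23, 0.18, 0.29 and 0.19 with the unfolded protein response list and 0.02 to 0.05 with the estrogen targets.

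**Figure D5:**
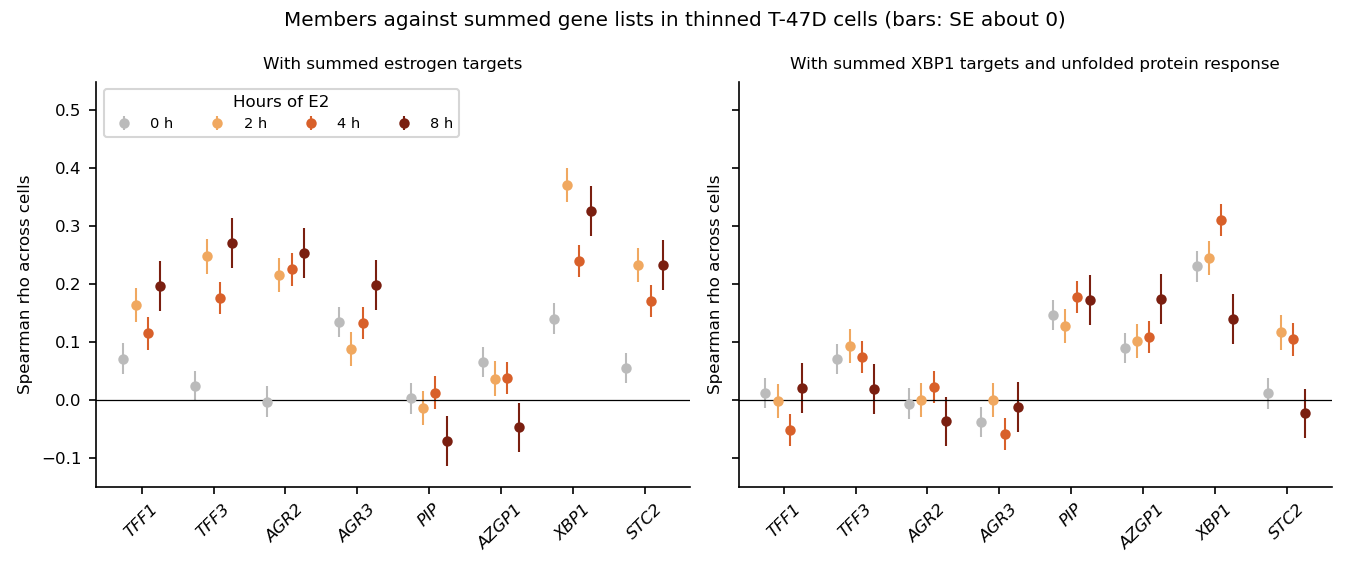
Spearman's rho of each gene with the summed UMIs of estrogen targets (left) and of XBP1 targets and unfolded protein response genes (right) across thinned T-47D cells, grey at 0 h and darker at later times of E2, with bars for the standard error about 0. With the estrogen targets TFF1, TFF3, AGR2, XBP1 and STC2 stand higher after E2 than at 0 h, and PIP stays near 0.

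With the summed S phase and the summed G2 and M phase genes, the measured genes lay between -0.09 and 0.08 in every pool of both lines. AGR2 was higher in T-47D cells of lower total UMIs (rho of -0.16 to -0.21 with the total before thinning) and of lower mitochondrial share (-0.11 to -0.24). With the mitochondrial share XBP1 had -0.08 to -0.20, TFF3 -0.12 to -0.17 and STC2 -0.04 to -0.17. TFF1, AGR3, PIP and AZGP1 lay between -0.09 and 0.08 there. The part of depth and mitochondrial share in the pairs of these genes was not tested.

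The 3 genes most like each of the 8 across cells were ranked by mean rho over the 4 T-47D pools. For XBP1 they were IGFBP5, an insulin-like growth factor binding protein (0.36), the luminal keratin KRT19 (0.35) and the phosphatase PTP4A2 (0.25). For PIP they were IGFBP5 (0.29), GNMT, a glycine methyltransferase (0.27), and DEGS2, a sphingolipid desaturase (0.24). AZGP1 ranked PIP, XBP1 and the histone H2AFJ highest (0.24, 0.17 and 0.16). AGR2 ranked S100A13 (0.33) and the ribosomal protein genes RPL10 (0.32) and RPL35 (0.30) highest, and AGR3 ranked ADIRF (0.25), AGR2 and SNCG (both 0.18). The lipid transfer gene STARD10 was among the 3 highest genes of both trefoil factors, and for AGR3 it had rank 5 (0.17). TFF1 ranked TFF3 (0.15), STARD10 (0.13) and the proton pump subunit ATP6V1G1 (0.11), and TFF3 ranked XBP1 (0.24), STARD10 (0.23) and the ATP synthase subunit ATP5MC2 (0.21). STC2 ranked CDV3, KRT19 (both 0.18) and AGR2 (0.17). The lowest values of XBP1 and PIP, chosen after their values were seen, were with the actin-binding TPM1 (-0.32 and -0.27) and the annexin ANXA2 (-0.30 and -0.31).

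In Ishikawa the nearest genes of XBP1 were the chaperones of the endoplasmic reticulum HSPA5 (0.19), CALR (0.15) and HSP90B1 (0.13). STC2 ranked TRIB3 (0.17), PSAT1, an enzyme of serine synthesis (0.16), and SLC7A11, the cystine transporter (0.15), and AGR2 ranked BASP1 (0.13), CALY and PTMA (both 0.12).

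Other genes of the secretory route were counted by the same rule. In T-47D, 0 of 25 measured XBP1 targets and unfolded protein response genes, 0 of 14 disulfide isomerases, 0 of 41 translocon and transport genes, 0 of 4 mucosal secreted genes and 0 of 3 apocrine genes passed the rule in either direction at 2, 4 or 8 h. Over all 7440 genes 1.22% to 2.34% were higher and 0.363% to 0.726% lower, so counts of 0 in lists of these sizes are near the background and are no result about the lists. At 8 h their medians were -0.01, -0.06, -0.02, 0.04 and -0.19 on the log2 scale, and the highest unfolded protein response gene was SDF2L1 (0.28) and the lowest EDEM2 (-0.40), an enzyme that prepares misfolded glycoproteins for disposal. The highest disulfide isomerase at 8 h was TXNDC16 (0.10) and the lowest ERP44 (-0.25), and of the transport genes these were SRPRB (0.32), a receptor subunit for the signal recognition particle, and TMED3 (-0.22). Among mucosal genes they were CLU (0.12) and MUC1 (-0.02), and among apocrine genes FASN (0.04) and APOD (-0.33).

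Estrogen targets moved with the E2 times in T-47D, where 12, 12 and 13 of 16 measured genes were 1.5-fold higher at 2, 4 and 8 h and none was lower, with medians of 1.05, 1.01 and 1.19. CXCL12, a chemokine, was highest at 8 h (3.102 on the log2 scale), followed by SUSD3 (2.60), GREB1 (2.08), MYBL1 (1.90), MYB (1.80) and IGFBP4 (1.59), and SLC39A6 was lowest (0.13). Among luminal transcription factors and keratins, PGR, the progesterone receptor (1.45), KRT8 (0.72) and ESR1, the estrogen receptor (0.59), were higher at 8 h, and KRT18 and KRT19 passed at 4 h (0.59 and 0.60), in a list of 12 measured genes whose lowest at 8 h was ELF3 (-0.58). The phosphate transporter SLC20A1 passed at each time (0.66, 0.62 and 0.79), and SLC20A2 stood at -0.46 at 8 h. S phase genes passed only at 8 h, 14 of 21, led by DTL (1.03), with RPA2 lowest (0.12), and of G2 and M phase genes TACC3 (0.59) was higher, with CCNB1 lowest (-0.23).

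In Ishikawa, where 0.634% to 0.812% of all 7885 genes were higher and 0.469% to 0.659% lower, a few genes of these lists passed the rule. SIAH2 was higher at each time (0.71, 0.81 and 0.86), NRIP1 (0.60) and RARA (0.64) at 2 h, and these were 3, 1 and 1 of 9 measured estrogen targets at 2, 4 and 8 h. ELF3, an epithelial transcription factor, was higher at 2 h (1.14), and SCGB2A1, a secretoglobin, at 2 and 8 h (0.77 and 0.64) with -0.40 at 4 h. TRIB3 (-0.61) and PPP1R15A (-0.62), of the stress response, were lower at 2 h.

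Barcodes with no time call and under 3000 UMIs gave the level of these genes outside the kept cells, although the matrices list only barcodes that Cell Ranger called cells. In T-47D 3033 such barcodes, with a median of 1037 UMIs, held 3385 CPM of AGR2, 2021 of PIP, 884 of TFF3, 820 of XBP1, 186 of AGR3, 153 of STC2, 88.6 of AZGP1 and 39.8 of TFF1. All 8 values were above those of all kept cells (1583, 758, 618, 634, 93.9, 70.1, 31.9 and 16.3 CPM). By the same 1.5-fold rule 6 of the 8 were higher in these barcodes, against 10.3% of all genes. UMIs of free RNA can enter any droplet, and their part in the shares of cells and in the pairs above was not tested. In Ishikawa the 430 such barcodes held only 504451 UMIs, so their 0 UMIs of TFF1, TFF3, PIP and AGR3 allow up to 7.31 CPM, above the levels of these genes in kept cells (at most 0.408 CPM), and say nothing of free RNA there.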

How the data were processed

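Gene expression was measured by droplet 3′ single-cell RNA sequencing in 1 library per line. The deposited matrices hold raw UMI counts that the authors made with Cell Ranger 3.1.0 on hg38, as the submitters' processing notes name them, and MULTI-seq calls were made by the authors with the demultiplex R package. Cells called to 1 time were kept within the limits of the study's methods (Ishikawa 8500 to 35000 UMIs, 2700 to 6000 genes, under 7% mitochondrial UMIs; T-47D 7500 to 40000 UMIs, 1500 to 6000 genes, under 20%). Tag doublets and uncalled barcodes did not enter the pools or the cell measures. Uncalled barcodes under 3000 UMIs were used only for the comparison of low-UMI barcodes with kept cells. Pairs of cells of the same time cannot be seen by tags, and no doublet caller was run. No cell clusters were made.

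Counts were summed per line and time and scaled to CPM, with a pseudocount of 1 CPM for log2 changes. Intervals were exact Poisson for CPM, conditional exact binomial for plain ratios and Clopper-Pearson for shares. PCR duplicates were removed by UMIs, and all intervals cover counting error only. Thinning was without replacement with seed 1. Noise residuals came from mgcv 1.9.3 in R 4.3.3 (log2(CV + 1) on log10 mean). Alternatives used TMM factors from edgeR 4.0.16, which ran no test. Python 3.11.15, numpy 2.4.6, scipy 1.17.1 and pandas 2.3.3 did the rest. The steps were tested on simulated data.

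The 8 genes and the gene lists were chosen with earlier results of these data known. Named genes were the 8, for each of them the 3 genes of highest mean rho in a line, and from each list the genes past the fold rule (at most 6 per list and line) with the highest and lowest at 8 h. Alternatives were other scalings, cell limits, pseudocounts, minimums and folds, cells without TOP2A and MKI67 UMIs, Ishikawa cells under 1% GFP UMIs, and other forms of the cell measures. The MULTI-seq barcode sequences and the GRCh37 genome were not used.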

Additional observations from a re-analysis of the deposited data

Results flagged for a closer look

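AGR2 went in opposite directions in the lines at 4 and 8 h. Its log2 change against 0 h was -0.22 at 4 h and -0.71 at 8 h in Ishikawa, and in T-47D it was 0.12 and 0.20 at those times. The counting intervals of the plain ratios exclude 1 on opposite sides at both times, only the Ishikawa value at 8 h passed 1.5-fold, and with 1 culture per line and time this difference was not tested. In Ishikawa the 4 h value changed sign to 0.04 in cells without TOP2A or MKI67 UMIs.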

How the results depend on the processing

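The count of genes past the rule in T-47D stayed within 1.5 times of 3, 3 and 4 at 2, 4 and 8 h under each of the 13 alternatives run there. The cell limits removed no called T-47D cell, and all 8 genes passed the minimum there. The alternatives of every called cell and of no minimum therefore could not change this count. In Ishikawa it stayed at 0 at 2 and 4 h under each of the 15 run there, and at 8 h the count of 1 (AGR2) became 0 over every called cell (log2 change -0.51), in cells without TOP2A or MKI67 UMIs (-0.52), with a pseudocount of 5 CPM (-0.58), with a minimum of 50 CPM and with a fold of 2. No called log2 change, and no rho of at least 0.1 in size, changed sign. With a pseudocount of 5 CPM the TFF1 changes in T-47D were 1.24, 1.36 and 1.93 instead of 1.71, 1.86 and 2.51. Of 632 alternative values of rho 12 lay outside the 95% sampling range about the reported value, and of 129 alternative noise percentiles 1 crossed from above to below 80. Of 88 alternative shares of cells 42 lay outside the reported interval, 41 of them shares without thinning. No paired analysis was possible because each line and time was 1 culture, so the groups share fewer than 2 replicate numbers. Depth limits TFF1, TFF3, PIP, AGR3 and AZGP1 in Ishikawa, which had at most 21 UMIs in a pool.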

Other observations

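The low-UMI barcodes of T-47D held more of other genes of the secretory route as well. Against the kept cells, 12 of 14 disulfide isomerases, 16 of 25 unfolded protein response genes and 16 of 41 translocon and transport genes were 1.5-fold higher in them, with medians of 0.69, 0.66 and 0.36 on the log2 scale. None of 12 luminal transcription factors and keratins was, with a median of -0.16. G2 and M phase genes, which belong to no secretory list, were also higher, 12 of 21 with a median of 0.66, and 4 of 21 S phase genes and 3 of 16 estrogen targets were. The median over all 7440 genes was 0.08, and that of the 8 genes was 1.11. This comparison was chosen after the values of the 8 genes in these barcodes were seen, and no cause was tested.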
